A study of Homo sapiens with 9 samples.

Results

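The genes described here are 6 of the 57766 in the expression table: CDKN2AIPNL, TTC5, RASL10B, MFSD3, AAMDC and A4GALT. They were picked by symbol because their level in zinc-depleted medium was far below that in both other media, and because they share no pathway with each other. Those 2 differences are therefore what chose them and are given as a description with no test. All 6 are protein-coding, and all 6 were among the 15774 genes that passed the filter on low values, at least 1 RPKM (reads per kilobase of gene, scaled to the size of the library) in at least 3 libraries. All 6 reached 1 RPKM in every library of untreated medium.

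The cells were HEK293 Freestyle, an established human embryonic kidney line kept in suspension, held before the experiment for at least 18 h at 1000000 cells/mL, washed and brought to 4000000 cells/mL. They then spent 36 h in untreated Freestyle medium (full), in that medium after removal of Zn(II) (depleted), or in depleted medium to which Zn(II) was returned (repleted). Polyadenylated RNA was sequenced from 3 libraries of each medium, 9 in all, which the labels call biological triplicates. Repleted is a medium of its own for the whole 36 h, so a "return" below is a comparison of 2 media and not a recovery over time. The depth estimated from the spacing of low values was 17000000 to 23400000 reads per library. Of 8 genes listed as marks of the line, all 8 averaged at least 1 RPKM in full and in repleted medium and 7 in depleted medium, the exception being PAX2 (0.6 RPKM against 3.29 in full). Their summed level was 863 to 875 RPKM in full, 858 to 884 in depleted and 846 to 871 in repleted libraries, but VIM makes up most of that sum and the single marks moved. VIM (577 and 665 RPKM in full and depleted medium) and CDH2 (37.3 and 47.5) were higher in depleted medium, and KRT8 (135 and 90.4), KRT18 (77.4 and 59.2), NEFL (31.8 and 6.53) and LHX1 (2.88 and 1.11) were lower. The summed level of 16 marks of other lineages was 37.5 to 41.9, 22.5 to 24.4 and 32.5 to 36.1 RPKM. In each medium 5 of them averaged at least 1 RPKM, and INS and HBB were at 0 throughout. COL1A1 (18.2 and 8.39 RPKM in full and depleted medium), LUM (8.96 and 3.5) and EPCAM (7.89 and 4.05) made up most of the sum. These were lower in depleted medium, while HBA1 (1.41 and 4.15) was higher. The part of these 16 marks in the results below was not tested. RPKM is a share of the library, so fewer cells that express a gene and less of its RNA per cell cannot be told apart.

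Zinc is held by structural sites in many proteins, among them zinc finger transcription factors, and by the catalytic sites of many enzymes. Metallothioneins bind free zinc and their genes are switched on by it, so they serve as a gauge of the zinc that a cell has at hand. None of the 6 genes belongs to that system. CDKN2AIPNL encodes a small protein with the domain that binds the nuclear exonuclease XRN2. TTC5 encodes a protein of tetratricopeptide repeats that recognises newly made tubulin at the ribosome and sets off the decay of tubulin mRNA, and that also serves as a cofactor of p300 in the p53 response. RASL10B encodes a small GTPase of the Ras superfamily, and MFSD3 a membrane protein of the major facilitator superfamily of transporters. AAMDC is named for its association with adipogenesis and its Mth938 domain. A4GALT encodes the Golgi galactosyltransferase that makes globotriaosylceramide (Gb3, the CD77 antigen and the receptor of Shiga toxin) from lactosylceramide.

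CDKN2AIPNL (ENSG00000237190) was the most abundant of the 6 in full medium, with 68.5, 61.99 and 62.15 RPKM in replicates 1 to 3. It had 5.51, 5.15 and 5.25 RPKM in the depleted libraries and 62.89, 59.88 and 65.1 in the repleted ones. All 3 depleted libraries lay far below the other 6, with no overlap, while full and repleted libraries overlapped. The group means were 64.2 ± 3.71, 5.3 ± 0.186 and 62.6 ± 2.62 RPKM (SD, n = 3 each), so the full mean was 12.1-fold and the repleted mean 11.8-fold that of depleted medium. The 3 processed pseudogenes of this gene in the table (CDKN2AIPNLP1, CDKN2AIPNLP2 and CDKN2AIPNLP3), singled out after their values were seen, are listed at 0 in every library.

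TTC5 (ENSG00000136319) had 19.02, 17.2 and 19.81 RPKM in full, 1.32, 1.49 and 1.01 in depleted and 17.34, 17.87 and 19.61 in repleted libraries. Its depleted libraries kept 6.82% of the full mean, the smallest share among the 6. The means were 18.7 ± 1.34, 1.27 ± 0.243 and 18.3 ± 1.19 RPKM (n = 3 each), a 14.7-fold difference between full and depleted medium and a 14.4-fold one between repleted and depleted medium.

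RASL10B (ENSG00000141150) had 22.84, 23.63 and 24.59 RPKM in full, 2.13, 1.45 and 2.07 in depleted and 25.08, 22.82 and 26 in repleted libraries. The repleted libraries spanned the range of the full ones, and the depleted libraries were again apart from both. The means of 23.7 ± 0.876, 1.88 ± 0.376 and 24.6 ± 1.64 RPKM (n = 3 each) put full medium 12.6-fold and repleted medium 13.1-fold above depleted medium.

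MFSD3 (ENSG00000167700) had 33.17, 35.11 and 38.56 RPKM in full, 3.59, 3.14 and 3.05 in depleted and 37.19, 37.91 and 33.84 in repleted libraries. Full and repleted libraries overlapped and the depleted ones stood below both. The means were 35.6 ± 2.73, 3.26 ± 0.289 and 36.3 ± 2.17 RPKM (n = 3 each), with full 10.9-fold and repleted 11.1-fold above depleted medium.

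AAMDC (ENSG00000087884) had 37.63, 36.76 and 33.71 RPKM in full, 14.76, 12.8 and 11.19 in depleted and 35.75, 34.15 and 39.51 in repleted libraries. Its depleted libraries did not overlap the others but kept far more of the transcript than those of the other 5 genes. The means were 36 ± 2.06, 12.9 ± 1.79 and 36.5 ± 2.75 RPKM (n = 3 each). Depleted medium kept 35.8% of the full mean, and full and repleted media lay 2.79-fold and 2.82-fold above it.

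A4GALT (ENSG00000128274) was the least abundant, with 2.04, 1.74 and 1.82 RPKM in full, 0.1, 0.26 and 0.22 in depleted and 1.92, 1.88 and 2.34 in repleted libraries. The groups again separated depleted medium from the other 2 media. The means of 1.87 ± 0.155, 0.193 ± 0.0833 and 2.05 ± 0.255 RPKM (n = 3 each) differ 9.66-fold between full and depleted medium. By the estimated depth and the effective length in the table this rests on about 3.63 to 9.58 reads per depleted library, against 59 to 80.7 per full library, so the fold of A4GALT is less firm than those of the other 5, whose depleted libraries held at least about 36.7 reads (TTC5).

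**Figure D1:**
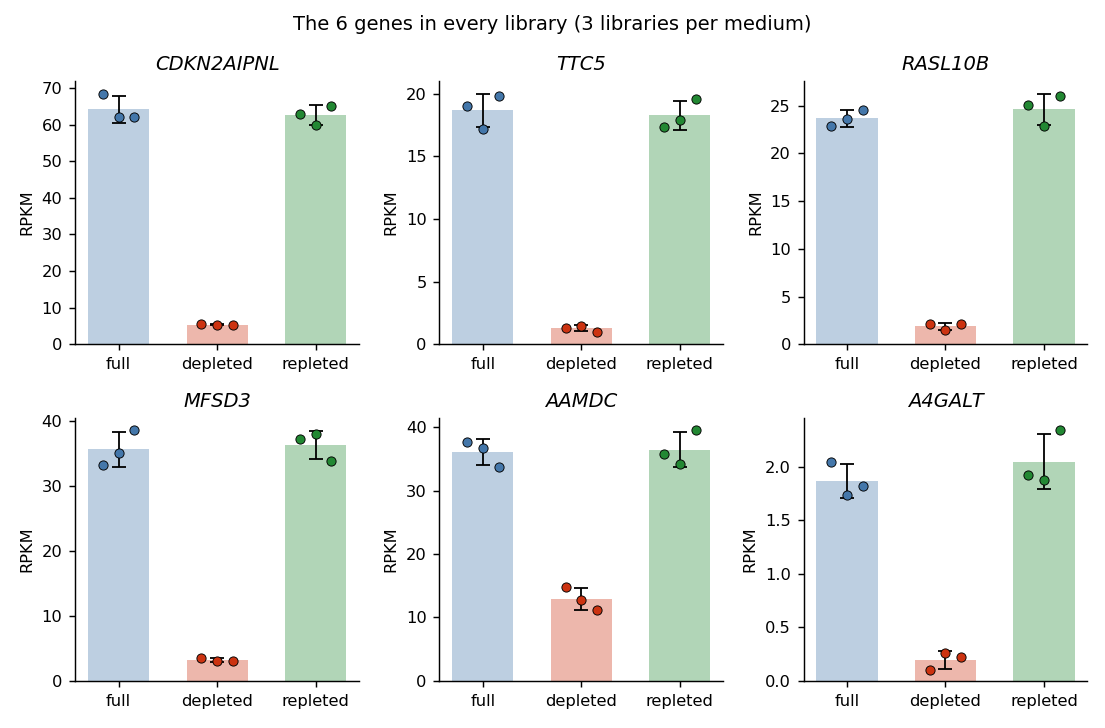
RPKM (vertical axis, from 0) of each of the 6 genes in full, depleted and repleted medium; points are libraries, bars the mean and error bars the SD of 3 libraries. In every panel the 3 depleted libraries lie below the other 6, and AAMDC keeps the largest share of its level (12.9 of 36 RPKM).

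In full medium the order of levels per length was CDKN2AIPNL, AAMDC, MFSD3, RASL10B, TTC5 and A4GALT, and AAMDC and MFSD3 did not differ beyond their spread. CDKN2AIPNL lay above 89.2% of the tested genes and A4GALT above 17.1%, around a median of 10.1 RPKM. In depleted medium AAMDC stood first, and RASL10B and TTC5 had overlapping libraries (1.45 to 2.13 and 1.01 to 1.49 RPKM).

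The 6 differ in how far they stand out, measured as the smaller of their 2 falls on the log2(RPKM + 1) scale. CDKN2AIPNL (3.33), RASL10B (3.11), MFSD3 (3.1) and TTC5 (3.09) ranked 5th, 8th, 9th and 10th of the 15774 genes tested. COQ3 (3.42) came directly above CDKN2AIPNL and MT1F (3.07) directly below TTC5. AAMDC (1.42) and A4GALT (1.27) ranked 368th and 501st, between BEX5 and HOXB8 and between HBQ1 and TMEM150C, so on this scale "strong" fits the first 4 genes better than these 2. For A4GALT the scale matters, since a pseudocount of 1 is close to its full level: its log2 change from full to depleted medium was -1.27 with a pseudocount of 1 and -2.79 with one of 0.1. The order of the first 4 depends on it too: the folds between the full and depleted means were 14.7 for TTC5 and 12.6 for RASL10B, above the 12.1 of CDKN2AIPNL. In background, 31.2% of the tested genes were called lower in depleted than in full medium and 31.2% lower than in repleted medium (limma with Benjamini-Hochberg adjustment, adjusted p under 0.05), and 34.3% and 33.4% had depleted libraries wholly below those of full and of repleted medium. All 6 genes were so placed in both comparisons, which share the depleted libraries and which chose the genes, so nothing is read from that count.

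Repleted against full medium asks how fully each gene came back when zinc was given back. None of the 6 was called, beside 0.0317% of all genes tested (5 of 15774, all lower in repleted medium), and the full and repleted libraries overlapped for all 6, while they did not overlap for 12.4% of genes. On the log2(RPKM + 1) scale the repleted mean differed from the full mean by -0.03 for CDKN2AIPNL (95% interval -0.16 to 0.09). The difference was -0.03 for TTC5 (-0.24 to 0.18), 0.05 for RASL10B (-0.17 to 0.27) and 0.03 for MFSD3 (-0.14 to 0.2). AAMDC differed by 0.02 (-0.2 to 0.23) and A4GALT by 0.09 (-0.2 to 0.38). The limma adjusted p ranged from 0.909 to 0.981 over the 6, which does not show that the media gave equal levels, and the intervals set what could have been seen: for CDKN2AIPNL a repleted level from 0.896 to 1.06 times the full level, and for A4GALT from 0.868 to 1.3 times, both on RPKM + 1. This comparison was not named by the choice of the genes, but it is the difference of the 2 comparisons that were, and a gene that came back poorly was less likely to be chosen.

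**Figure D2:**
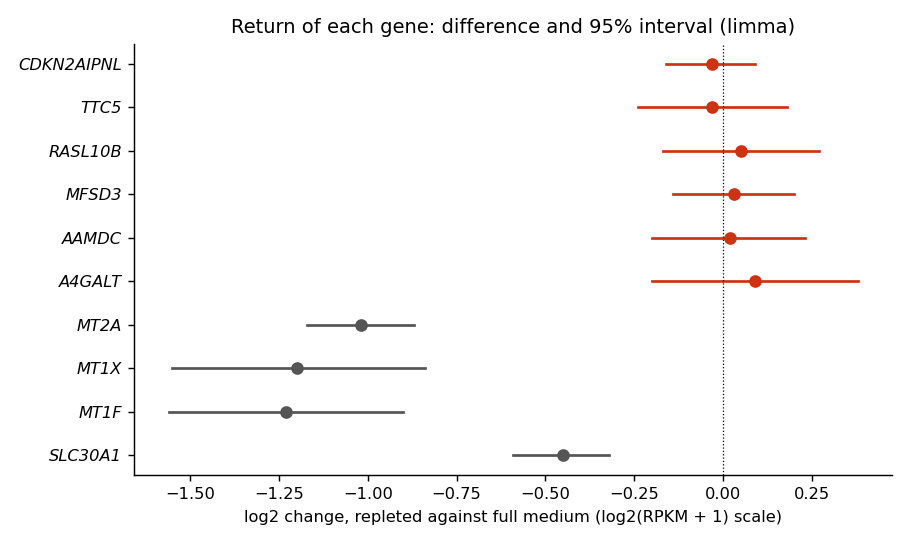
Difference between repleted and full medium on the log2(RPKM + 1) scale (horizontal axis) for the 6 genes (red) and 4 genes picked by name (grey). Points are limma estimates and lines 95% intervals, not adjusted over genes. The 6 intervals include 0, from CDKN2AIPNL (-0.16 to 0.09) to A4GALT (-0.2 to 0.38), and those of MT2A, MT1X, MT1F and SLC30A1 lie below 0.

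Expressed as the share of the fall that was recovered, with each repleted library set between the depleted and full means on the log2(RPKM + 1) scale, CDKN2AIPNL recovered 99% ± 1.77 and TTC5 99.1% ± 2.82 (SD, n = 3 repleted libraries). RASL10B recovered 102% ± 3.01, MFSD3 101% ± 2.75, AAMDC 101% ± 7.38 and A4GALT 107% ± 9.33. The lowest single repleted library was at 94.8% (AAMDC, replicate 2) and the highest at 118% (A4GALT, replicate 3). In linear RPKM the shares ran from 97.3% (CDKN2AIPNL) to 111% (A4GALT), with single libraries between 91.9% and 128%. Such a return was common: over the 1074 genes called lower by at least 1 on the log2 scale in depleted against full medium, the median share was 98.6% (middle 50% of genes, 92.1% to 104%), and 771 of them (71.8%) lay between 90% and 110%.

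The metallothionein genes MT2A, MT1X and MT1F and the exporter gene SLC30A1 had lower values of this share. They were picked by name outside the lists, so they do not stand for zinc-responsive genes at large. MT2A and MT1F are also among the 5 genes called in repleted against full medium. MT2A, a metallothionein, had 187.92, 200.7 and 183.59 RPKM in full and 93.56, 90.07 and 96.74 in repleted libraries, and recovered 78.2% ± 1.09 of its fall on the log2 scale and 47.2% ± 1.81 in linear RPKM. It remained 1.02 lower in repleted than in full medium on the log2 scale (SE 0.07, limma adjusted p = 0.00114). SLC30A1, the zinc exporter of the plasma membrane, recovered 60% ± 6.28 on the log2 scale, but its difference between repleted and full medium (log2 -0.45) did not pass (limma adjusted p = 0.0596). Whether the recovery of the 6 genes differs from that of MT2A was not tested.

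**Figure D3:**
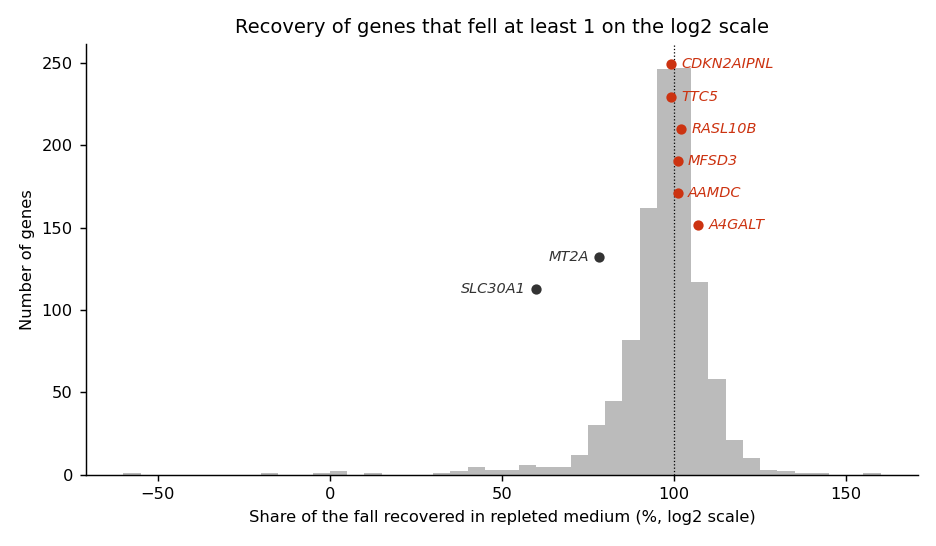
Share of the fall recovered in repleted medium (horizontal axis, %, log2 scale) for the 1074 genes that fell by at least 1 on the log2 scale (grey bars, number of genes per 5% bin); dots mark the 6 genes (red) and MT2A and SLC30A1 (black), at heights chosen for legibility. The 6 lie between 99% and 107%, near the median of 98.6%, and MT2A and SLC30A1 lie at 78.2% and 60%.

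The spread within groups differed between the 6 genes. The SD of their log2 values over 3 libraries ran from 0.051 to 0.107 in full, 0.042 to 0.196 in depleted and 0.06 to 0.118 in repleted medium, beside medians over all tested genes of 0.091, 0.093 and 0.105. In depleted medium TTC5 (0.157), AAMDC (0.185) and RASL10B (0.196) lay well above that median and CDKN2AIPNL (0.042) below it. By the distance between profiles (the 9 log2 values of a gene after subtraction of its full mean, Euclidean), CDKN2AIPNL, TTC5, RASL10B and MFSD3 lay within 0.36 to 0.58 of each other, and AAMDC and A4GALT within 0.5 of each other but at least 2.95 from the first 4. These distances follow from the size of the falls that chose the genes.

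Genes outside the 6 shared these profiles. The nearest to TTC5, RASL10B and MFSD3 was AGK, a lipid kinase of mitochondria, at distances of 0.376, 0.275 and 0.312, with 45.9 ± 1.36, 4.17 ± 0.47 and 45.6 ± 1.58 RPKM in full, depleted and repleted medium. AGK was also second nearest to CDKN2AIPNL (0.373), after EEFSEC, the elongation factor for selenocysteine (0.34; 27.4 ± 1.05, 1.79 ± 0.135 and 24 ± 0.416 RPKM), and before COQ3, a methyltransferase of coenzyme Q synthesis (0.437). TMEM109 was among the 3 nearest to TTC5, RASL10B and MFSD3 (43.8 ± 1.02, 4.82 ± 0.535 and 44.7 ± 1.8 RPKM), BOLA3, which serves in iron-sulphur cluster assembly in mitochondria, among those of RASL10B and MFSD3 (80.9 ± 1.14, 9.92 ± 0.968 and 81.8 ± 7.23 RPKM), and CNTNAP2 among those of TTC5. AAMDC lay nearest to CYP4X1 (0.257), ICT1 (0.258) and RTN4RL1 (0.259). CYP4X1 and RTN4RL1 averaged only 3.33 and 2.79 RPKM in full medium. Their like log2 profiles are therefore larger folds between full and depleted medium (6.16 and 6.11) than that of AAMDC (2.79). A4GALT lay nearest to COX16 (0.163), a cytochrome c oxidase assembly factor, SRP68 (0.21), a subunit of the signal recognition particle, and TEX261 (0.217). COX16 had 51.1 ± 1.99, 21 ± 0.173 and 54.8 ± 3.02 RPKM, so a like log2 profile at its level is a smaller fold than that of A4GALT.

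The promoters of members that fell together are shown because they look unlike each other. RefSeq windows (GRCh38.p14, 250 bases before to 50 after a gene's start) were at hand for CDKN2AIPNL, TTC5, AAMDC and A4GALT, the last with 2 starts, and the 250 bases before the start are printed 5′ to 3′ on the gene's strand, with matches to any of 12 searched motifs in capitals. They lie at chr5:134411882-134412131 (minus strand), chr14:20305952-20306201 (minus), chr11:77820894-77821143 (plus) and, for the first start of A4GALT, chr22:42720871-42721120 (minus).
CDKN2AIPNL: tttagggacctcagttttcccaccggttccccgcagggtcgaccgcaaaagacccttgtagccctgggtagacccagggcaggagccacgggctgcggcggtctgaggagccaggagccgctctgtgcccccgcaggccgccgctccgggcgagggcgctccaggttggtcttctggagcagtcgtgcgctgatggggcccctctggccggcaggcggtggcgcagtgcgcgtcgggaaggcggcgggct
TTC5: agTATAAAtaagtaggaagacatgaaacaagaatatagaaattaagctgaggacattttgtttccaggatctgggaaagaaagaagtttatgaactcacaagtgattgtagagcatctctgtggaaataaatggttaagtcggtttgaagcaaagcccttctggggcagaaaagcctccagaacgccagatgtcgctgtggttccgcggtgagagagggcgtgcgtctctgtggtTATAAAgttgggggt
AAMDC: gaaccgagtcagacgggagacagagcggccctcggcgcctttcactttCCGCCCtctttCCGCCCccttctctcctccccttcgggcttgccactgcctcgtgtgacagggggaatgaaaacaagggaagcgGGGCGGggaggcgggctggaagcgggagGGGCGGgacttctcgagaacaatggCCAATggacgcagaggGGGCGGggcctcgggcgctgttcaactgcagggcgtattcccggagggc
A4GALT: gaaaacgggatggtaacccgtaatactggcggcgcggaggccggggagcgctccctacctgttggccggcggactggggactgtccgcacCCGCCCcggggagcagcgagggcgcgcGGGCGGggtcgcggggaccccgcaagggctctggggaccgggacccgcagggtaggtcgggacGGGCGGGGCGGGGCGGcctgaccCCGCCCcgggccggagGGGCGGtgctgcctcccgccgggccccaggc

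The TTC5 window was 45.7% G and C with 9 CpG, the CDKN2AIPNL window 72% with 31, the AAMDC window 66.7% with 26 and the first A4GALT window 81% with 43, where promoters of tested genes had medians of 65% and 25. The second A4GALT start had 43.3% and 6. Matches were searched on both strands over all 300 bases. GGGCGG, the box of the SP1 family, occurred 5 times in AAMDC and 9 times in the first A4GALT window (where some of them overlap each other), once at the second A4GALT start, and not in CDKN2AIPNL or TTC5. It is held by 66.4% of the promoters of tested genes and 45% of all 35116 promoters. TATAAA occurred 2 times in TTC5 (6.07% of promoters of tested genes hold it) and in none of the other windows. CCAAT, the NF-Y box, occurred once in AAMDC and 3 times at the second A4GALT start (34.6% hold it). Of the 2 forms of the core of the metal response element, TGCGCNC occurred once, within the first 50 bases of the AAMDC transcript (29.1% hold it), and TGCACNC in none (11.6%). TGATGCA, the core of the ATF4 element, occurred once at the second A4GALT start (1.53%). CCGGAAG (ETS box, 16.2%), GCATGCG (NRF1 core, 5.69%), ATGGCGG (YY1, 8.97%), ACTACAA (ZNF143, 3.33%), CACGTG (E-box, 9.25%) and TGACGTC (CRE, 4.84%) occurred in none of the windows. CDKN2AIPNL held no match to any of the 12. A match is a run of letters and not a site shown to be bound, and no motif was found in all 4 genes.

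Of 7 adjacent genes tested, 1 (JADE2) was called lower and 4 higher against full medium, where 31.2% and 29.8% of all tested genes were. JADE2, a subunit of histone acetyltransferase complexes, is the next protein-coding gene on 1 side of CDKN2AIPNL, in head to head orientation. The distance between their starts was not measured, so no shared promoter is read from this. JADE2 had 5.76, 5.42 and 5.68 RPKM in full, 1.84, 2.75 and 1.42 in depleted and 6.1, 5.39 and 4.82 in repleted libraries, with no overlap between depleted and the rest. It fell by 1.16 on the log2 scale against full medium (SE 0.15, limma adjusted p = 0.000121) and by 1.12 against repleted medium. On the other side UBE2B, a ubiquitin-conjugating enzyme, had 91.2 ± 3.11, 89.9 ± 4.96 and 91.6 ± 2.84 RPKM and did not pass (log2 -0.02, limma adjusted p = 0.705). CCNB1IP1, next to TTC5, rose from 27.5 ± 0.399 to 44 ± 2.22 RPKM (a log2 change of 0.66, limma adjusted p = 2.26e-05). ARFGAP3, next to A4GALT, rose from 20.1 ± 1.17 to 31.8 ± 1.42 RPKM (log2 0.63, limma adjusted p = 9.5e-06). INTS4, an Integrator subunit, and RSF1, a chromatin remodelling factor, flank AAMDC and overlap it in RefSeq. INTS4 rose from 14.1 ± 1.45 to 22.5 ± 2 RPKM (log2 0.64, limma adjusted p = 0.000136) while RSF1 had 15.6 ± 0.875 and 14.7 ± 1.2 RPKM (log2 -0.08, limma adjusted p = 0.482). Whether reads were counted by strand is not given in the sources used here, so reads of AAMDC and of these 2 genes may not be fully told apart. AP2B1, a clathrin adaptor subunit next to RASL10B, had a log2 change of 0.1 against full medium (limma adjusted p = 0.0257). This did not pass when full replicate 2 was left out (adjusted p 0.0992), nor when depleted replicate 2 (0.0685) or 3 (0.0661) was. Its change of 0.16 against repleted medium (limma adjusted p = 0.00259) passed in all 17 alternatives. The other neighbours, OR11H4, GAS2L2 and ATP5L2, averaged under 0.1 RPKM in every medium. MFSD3 had no entry in the RefSeq annotation at hand, so its neighbours were not examined.

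The named relatives moved in different directions, and no relative was named for TTC5. CDKN2AIP, the longer relative of CDKN2AIPNL, moved the other way: it had 10.11, 9.32 and 10.56 RPKM in full, 19.68, 21.69 and 21.41 in depleted and 9.52, 9.84 and 10.37 in repleted libraries. It rose by 1 on the log2 scale (SE 0.07, limma adjusted p = 1.31e-06). NDUFAF3, an assembly factor of respiratory complex I whose protein has the same type of domain as AAMDC, fell from 117 ± 1.02 to 61.2 ± 0.744 RPKM and had 119 ± 1.43 in repleted medium (log2 -0.93, SE 0.03, limma adjusted p = 1.23e-08 against full). SLC33A1, the acetyl-CoA transporter set beside MFSD3, had 16.7 ± 0.602 and 17.5 ± 0.155 RPKM in full and depleted medium (log2 0.06, limma adjusted p = 0.407). RASL10A had 0.943 ± 0.137 RPKM in full and 0.463 ± 0.117 in depleted medium (log2 -0.41, limma adjusted p = 0.0276). That call ended in 6 alternatives at the same threshold, with adjusted p up to 0.091. The repleted libraries averaged 1.18 ± 0.14 RPKM, and the depleted level of RASL10A was lower than this too (log2 -0.57, limma adjusted p = 0.00537). This second call held in all 17 alternatives, where the highest adjusted p was 0.0216. A4GNT, the relative of A4GALT, is listed at 0 in all 3 full libraries.

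**Figure D4:**
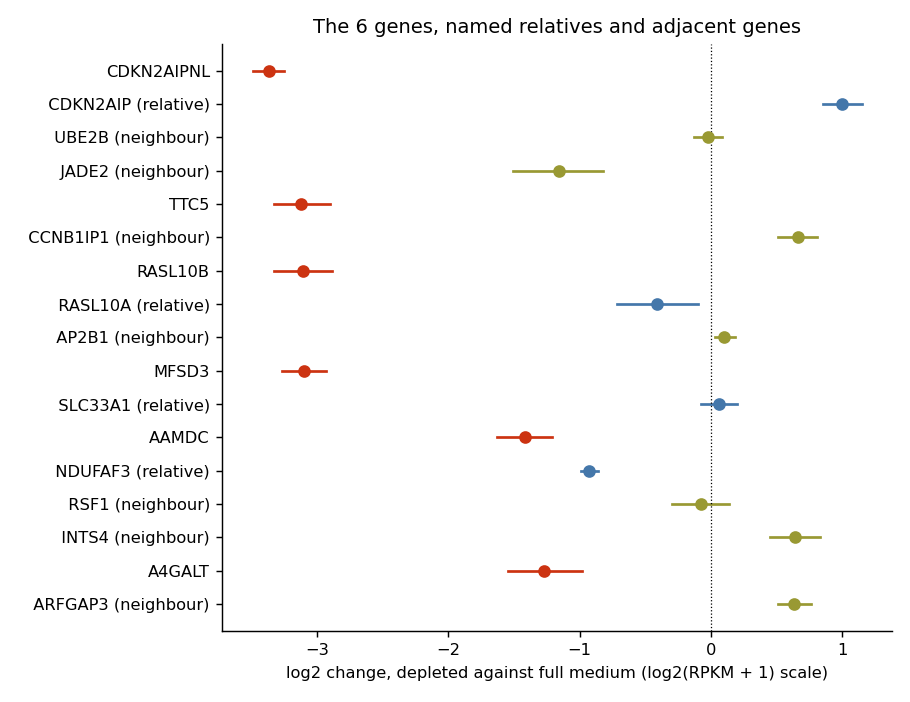
log2 change in depleted against full medium on the log2(RPKM + 1) scale (horizontal axis) for the 6 genes (red), named relatives (blue) and adjacent protein-coding genes (olive) that passed the filter; lines are 95% intervals from limma. JADE2 (-1.16) and NDUFAF3 (-0.93) were also lower, CDKN2AIP rose by 1, and CCNB1IP1, INTS4 and ARFGAP3 rose by 0.63 to 0.66.

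Other genes were then counted over lists set around the 6, with the member itself left out: genes that act in the same process for CDKN2AIPNL, TTC5, AAMDC and A4GALT, and family relatives for RASL10B and MFSD3. As background, depleted against full medium gave 29.8% of tested genes as higher and 31.2% as lower, with 29.5% and 31.2% in depleted against repleted medium. The median log2 changes were near 0 (0.001 and -0.01). Around CDKN2AIPNL, 4 genes were tested (XRN2, its partners CDKN2AIP and NKRF, and the cytoplasmic exonuclease XRN1), of which CDKN2AIP rose and XRN2 and XRN1 fell against full medium (median log2 -0.13). XRN2 fell from 44.1 ± 1.35 to 37.7 ± 0.662 RPKM (log2 -0.22, limma adjusted p = 0.00229), and NKRF, another partner of XRN2, did not pass (log2 -0.03). XRN1 had a log2 change of -0.44 (limma adjusted p = 0.0381), with 10.27, 10.07 and 15.4 RPKM in the full libraries. Against repleted medium it did not pass (log2 -0.26, limma adjusted p = 0.188). In that comparison 1 of the 4 genes rose and 1 fell (median log2 -0.07).

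Around TTC5, 14 genes of the machinery that acts on tubulin mRNA and nascent chains were tested: SCAPER, the adaptor that TTC5 recruits, subunits of the CCR4-NOT deadenylase, and the nascent-chain proteins NACA and BTF3. Of these 7 rose and 5 fell against full medium (median log2 0.05), and 6 rose and 5 fell against repleted medium (median 0.11). SCAPER rose from 7.26 ± 0.925 to 12.8 ± 1.23 RPKM (log2 0.74, limma adjusted p = 0.00328) and CNOT10 from 29.2 ± 1.49 to 48.5 ± 2.04. The scaffold CNOT1 rose from 80.1 ± 4.38 to 95.8 ± 3.46 RPKM, while TNKS1BP1 fell from 10.5 ± 0.543 to 6.23 ± 0.276. Of 14 tubulin genes 2 rose and 9 fell (median log2 -0.2), and 3 rose and 8 fell against repleted medium (median -0.19). TUBA1B fell from 1483 ± 11.3 to 1183 ± 22.2 RPKM and had 1428 ± 16.5 in repleted medium. TUBB fell from 1440 ± 13.1 to 1047 ± 10.2 RPKM (log2 -0.46, limma adjusted p = 1.85e-07) and TUBB2B from 194 ± 3.14 to 117 ± 6.68. TUBB2A rose from 68.5 ± 2.63 to 80.4 ± 2.92 RPKM. Tubulin genes resemble one another closely, and how reads were split between them limits these values. Of 8 partners of TTC5 in the p53 response, 2 rose and 2 fell (median log2 0.11): the acetyltransferase EP300 rose by 0.35 and the kinase ATM by 0.68 on the log2 scale, and the methyltransferase PRMT5 fell from 126 ± 5.95 to 67.2 ± 2.64 RPKM. ATM had 9.52 ± 0.884, 15.9 ± 1.68 and 13 ± 0.757 RPKM in full, depleted and repleted medium. Its repleted libraries lay wholly above the full ones, a difference that did not pass (log2 0.41, limma adjusted p = 0.333). Against repleted medium ATM rose by 0.27 (limma adjusted p = 0.0255) and EP300 did not pass (log2 0.18, limma adjusted p = 0.0957). In that comparison 2 of the 8 rose and 3 fell (median log2 0). Those 5 calls became 1 without depleted replicate 3, and 3 without any 1 of depleted replicates 1 and 2 and repleted replicates 1 and 3.

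Around RASL10B, 10 small GTPases related to Ras were tested, of which 3 rose and 6 fell (median log2 -0.43; 4 and 6 against repleted medium). NKIRAS2, which restrains NF-kB, fell from 62.8 ± 0.756 to 25.4 ± 1.82 RPKM and had 63.7 ± 3.77 in repleted medium (log2 -1.28, limma adjusted p = 1.3e-07 against full). Its relative NKIRAS1 rose from 7.5 ± 0.83 to 13.6 ± 0.151 RPKM. RASL11A fell from 4.83 ± 0.767 to 2.5 ± 0.49 RPKM and RERG from 5.15 ± 0.296 to 3.47 ± 0.226. Around MFSD3, 15 transporters of related type were tested, of which 8 rose and 2 fell in each depleted comparison (median log2 0.21 and 0.23). The lysosomal lipid transporter SPNS1 rose from 27.7 ± 0.883 to 55 ± 0.677 RPKM (log2 0.96, limma adjusted p = 3.73e-07), HIATL1 from 29.5 ± 0.437 to 38.9 ± 1.71 and MFSD1 from 17.4 ± 0.603 to 23.1 ± 2.03. MFSD10 and MFSD12 did not pass (log2 0.14 and 0.09). MFSD2A, a carrier of lysophospholipids, fell from 5.4 ± 0.48 to 3.39 ± 0.138 RPKM, and the folate transporter SLC46A1 from 17.5 ± 0.358 to 14.2 ± 0.78.

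Around AAMDC, 11 genes of fat cell formation or of its domain were tested, of which 4 rose and 3 fell (median log2 0.07; 5 and 3 against repleted medium). CEBPB rose from 9.13 ± 0.646 to 21 ± 0.462 RPKM and CEBPA fell from 7.91 ± 0.95 to 3.28 ± 0.48, 2 transcription factors of that programme. KLF15 rose from 5.18 ± 0.103 to 11.3 ± 0.265 RPKM, and PPARG did not pass against full medium (13 ± 1.31 and 13.3 ± 0.326 RPKM). NDUFAF4, which acts with NDUFAF3, fell from 67.9 ± 2.63 to 50.6 ± 1.38 RPKM. Of 12 genes of PI3K, AKT and mTOR signalling and MYC, 4 rose and 4 fell against full medium (median log2 -0.06), among them MTOR (log2 0.24) and RPTOR, which fell from 20.2 ± 1.22 to 11.8 ± 0.167 RPKM. Against repleted medium 2 of the 12 rose and 4 fell (median log2 -0.06).

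Around A4GALT, 5 other enzymes of globo-series glycosphingolipids were tested, of which 1 rose and 3 fell in each depleted comparison (median log2 -0.28 and -0.19). Against repleted medium the 4 calls became 2 without depleted replicate 1, depleted replicate 3 or repleted replicate 1. UGCG, which makes glucosylceramide, fell from 12.4 ± 0.675 to 10.1 ± 0.455 RPKM (log2 -0.28, limma adjusted p = 0.00987). Of the 2 enzymes that make lactosylceramide, the substrate of A4GALT, B4GALT6 fell from 18.4 ± 1.78 to 12.5 ± 0.436 RPKM and B4GALT5 did not pass (17.4 ± 0.401 and 16.1 ± 0.184). ST3GAL2, which sialylates the globo series, fell from 10.1 ± 0.851 to 5.31 ± 0.505 RPKM, and FUT1 rose from 1.06 ± 0.286 to 2.02 ± 0.15. B3GALNT1, which makes the next lipid of the series, averaged at most 0.0367 RPKM in any medium. Of 6 enzymes of other branches 1 rose and 4 fell against full medium (median log2 -0.39), and 1 rose and 3 fell against repleted medium (median -0.3). The ganglioside enzymes ST3GAL5 and B4GALNT1 fell from 6.31 ± 0.225 to 3.28 ± 0.191 and from 6.8 ± 0.528 to 2.7 ± 0.0964 RPKM, and B3GNT5 of the lacto series rose from 7.96 ± 0.6 to 11.1 ± 0.511.

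Genes of glycolipid breakdown in lysosomes and genes set around A4GALT were counted as 1 list. Not all of the former act on Gb3, and not all of the latter are cofactors of A4GALT. Of 10 tested, 6 rose and 0 fell in each depleted comparison (median log2 0.29 and 0.32), but the genes set around A4GALT did not rise as a group. GLA, the lysosomal galactosidase that cleaves Gb3, rose from 63.7 ± 2.58 to 114 ± 0.628 RPKM and had 59.3 ± 1.21 in repleted medium (log2 0.83, limma adjusted p = 1.03e-07 against full). HEXA, a subunit of lysosomal hexosaminidase, rose from 47.4 ± 1.53 to 94.9 ± 3.4 RPKM and the saposin precursor PSAP from 130 ± 2.14 to 165 ± 5.32. LAPTM4A, which A4GALT needs for its activity, rose from 73 ± 1.67 to 85.3 ± 1.93 RPKM. AHR, also in the list, rose by 0.55 on the log2 scale. TM9SF2, which affects the placing of A4GALT in the Golgi, did not pass (35.1 ± 1.28 and 36.9 ± 1.84 RPKM). Neither did TMEM165 (40 ± 4.02 and 41.1 ± 1.01) nor ARF1, the most abundant of the list (370 ± 3.13 and 359 ± 3.1). In repleted against full medium 0 of the genes of these lists were called.

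**Figure D5:**
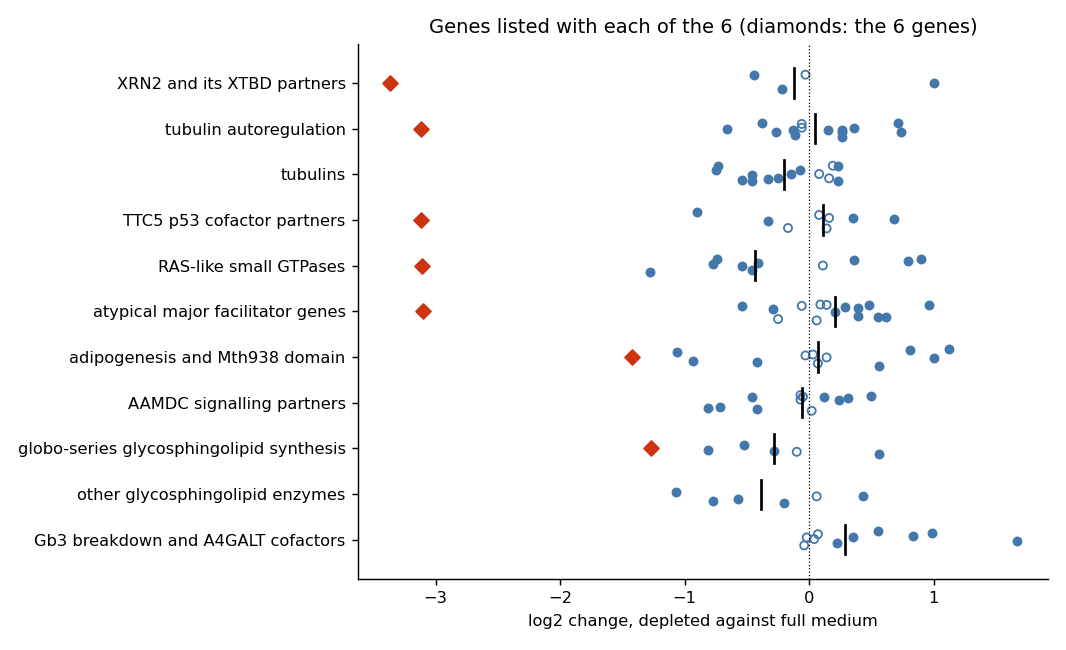
log2 change in depleted against full medium (horizontal axis) of the tested genes of each list, with filled points for limma adjusted p under 0.05, open points for the rest, black bars for the median without the member and red diamonds for the 6 genes. The diamonds lie at -3.37 to -1.27, to the left of every other point in their lists, and the list medians lie between -0.43 and 0.29. The 6 genes were chosen for a large fall in this comparison, so nothing is read from the place of the diamonds.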

How the data were processed

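The deposited table gives log2 of RPKM plus 1 per gene by the authors, per the file headers. Gene length and effective length stand beside it, so RPKM is per length. Per the submitters' processing notes the builds were hg19 and GRCh37 and the tools bedtools 2.25.0.3 and BWA 0.7.12-r1039 beside Bowtie 1.0.1 and RSEM 1.2.6. Which tool did what, and any further scaling, is not given in the sources used here. The log was undone to RPKM, whose values lie on a grid of 0.01. No counts were used: only 59.7% to 66.9% of low values were whole reads within 0.1 read at the best depth, so no count test was run.

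limma 3.58.1 (R 4.3.3, variance trend) was fitted on the deposited log2 values over all 9 libraries with 1 mean per group and Benjamini-Hochberg adjustment over the 15774 genes that reached 1 RPKM in 3 or more libraries, and was tested on simulated data. Alternatives were a pseudocount of 0.1, no filter, the 6 libraries compared, the replicate number as a block, median centring, quantile normalization, each library left out and a threshold of 0.01. A fit on protein-coding genes only was chosen after seeing the data, as were all alternatives for the lists, relatives and neighbours. The members and lists were chosen with earlier results of these data known. Genes were named by a rule: all members, their relatives and neighbours, the 3 nearest profiles, and of each list those that changed by at least 1 on the log2 scale or were most abundant, except 1 gene that is not reported here. Some other list genes (SCAPER, CNOT10, TNKS1BP1, EP300, ATM, RASL11A, MFSD1, MFSD2A, SLC46A1, RPTOR and others with values above) were chosen after their values were seen. MT2A, MT1X, MT1F and SLC30A1 also lie outside that rule. Neighbours and promoters follow RefSeq on GRCh38.p14, a later build than that of the values, and no coordinates of the values' genes are given. Python 3.11.15 with matplotlib 3.10.9 made the figures.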

Additional observations from a re-analysis of the deposited data

How the results depend on the processing

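The 2 falls of each of the 6 genes chose them, so their calls under the alternatives show nothing about stability. The share recovered stayed within 1 SD in its 12 alternatives. In repleted against full medium no alternative called any of the 6, but 4 of the estimates are too near 0 to hold a sign: with 1 library left out they ranged from -0.063 to 0.012 for CDKN2AIPNL, -0.085 to 0.012 for TTC5, -0.02 to 0.085 for MFSD3 and -0.042 to 0.061 for AAMDC. The 5 genes called in that comparison became 2 without the filter, 3 with a pseudocount of 0.1, 2 with only the 6 libraries compared, 1 at a threshold of 0.01 and between 1 and 9 with 1 library left out, the highest without full replicate 1 and the lowest without full replicate 3 or repleted replicate 3, and 1224 had an unadjusted p under 0.05 in limma. Residuals of libraries with the same number correlated between -0.014 and 0.073, so the numbers were not taken as pairs. With the replicate number as a block the count became 2. UBE2B turned to 0.024 (full) and 0.022 (repleted) after median centring, and ranged from -0.066 to 0.005 against full with 1 library left out, the highest without depleted replicate 1. At a threshold of 0.01 the genes called fell to 3 for the other glycosphingolipid enzymes (against full) and, against repleted medium, to 1 for the partners of XRN2 (1 also after median centring), 1 for the p53 partners of TTC5 and 2 for the globo series. Without the filter the last 2 were 1 and 2. The p53 partners gave 3 with only the 6 libraries, and with 1 library left out they ranged from 1 to 5 and the globo series from 2 to 3. Some calls were gained: RSF1 and SLC33A1 did not pass against repleted medium in the main fit (limma adjusted p 0.109 and 0.0882). RSF1 passed without repleted replicate 2 (log2 -0.303, limma adjusted p 0.0114). SLC33A1 passed after median centring (log2 0.184, limma adjusted p 0.0386) and without repleted replicate 3 (log2 0.196, limma adjusted p 0.0148). The causes were not tested. Depth limits A4GALT most, with few reads in depleted libraries.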
